A study of Mus musculus with 18 samples.

Results

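The peaks described here lie in transcripts of zinc finger genes and were bound by Argonaute 2 (Ago2) in mouse colonic epithelium. A peak is a stretch of RNA where reads piled up after Ago2 was pulled down, and each merged peak carries a gene label from the authors. All merged peaks whose gene label begins with Zfp, Zbtb, Zkscan, Zscan or Klf were taken, which gave 67 peaks of 23 genes among 5554 merged peaks. Of the merged peaks 5448 had an annotation, and these belonged to 2568 genes. The libraries were made by HEAP, a form of CLIP-seq in which Ago2 carries a Halo tag and is captured on a Halo-binding resin after ultraviolet crosslinking, so that both the miRNAs and the mRNA fragments it held are sequenced. The study asked which targets miRNAs have in this epithelium with and without oncogenic K-Ras. The control mice were Halo-Ago2/+; Fabp-Cre/+ and had wild-type K-Ras (WT), and the others were Halo-Ago2/+; Fabp-Cre/+; K-Ras-G12D/+ (G12D). All were C57BL/6 mice of 8 to 12 weeks, so 1 Halo-Ago2 allele and the Cre transgene were common to both genotypes. Epithelium was enriched by scraping the distal colon, and the tissue received 3 rounds of ultraviolet light at a dose of 400 mJ per square centimetre. There were 3 mRNA and 3 miRNA pulldown libraries per genotype.

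Zinc finger proteins form several families. Those with C2H2 fingers, among them the Krüppel-like factors (KLFs) and the proteins with a BTB domain (Zbtb genes), bind DNA and regulate transcription, and in the gut KLF4 and KLF5 are known for their parts in differentiation and in crypt proliferation. The proteins of the Zfp36 family have CCCH fingers instead, bind AU-rich elements in the 3' UTRs of short-lived mRNAs and recruit the deadenylation machinery. A miRNA guides Ago2 to an mRNA mainly through its seed, bases 2 to 8 counted from its 5' end, which pairs with a complementary site that often lies in the 3' UTR.

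The miRNA families with most seed matches in these peaks were miR-29, miR-194, miR-27, miR-181 and miR-361. Another 9 families matched 2 peaks each, and of these let-7, miR-200/429 and miR-24 are shown as those with most matches over all peaks. Their most abundant tested members are shown because the sites described further on are complementary to them. The sequences are RefSeq's mature miRNAs (GRCm38.p6), and the capitals mark the seed.
miR-29a-3p: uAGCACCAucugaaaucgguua
miR-194-5p: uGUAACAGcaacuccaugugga
miR-27a-3p: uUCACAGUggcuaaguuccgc
miR-181a-5p: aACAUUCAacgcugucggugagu
miR-361-5p: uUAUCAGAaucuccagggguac
let-7b-5p: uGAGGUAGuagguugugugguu
miR-200c-3p: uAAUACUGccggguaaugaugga
miR-24-3p: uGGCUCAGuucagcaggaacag
No seed is shared between these 8 families. A full 8-mer site, the complement of the seed followed by an A, reads TGGTGCTA for miR-29, CTACCTCA for let-7, CAGTATTA for miR-200/429 and CTGAGCCA for miR-24 in DNA letters.

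The libraries held between 54401 and 148770 reads in merged peaks in WT and between 148927 and 723937 in G12D, so low peaks were measured less precisely in WT. A zinc finger peak had a median of 13 reads over the 3 WT libraries and of 86 over the 3 G12D libraries. Of 25 colonocyte and goblet cell marker genes, 23 had a peak. Of their 132 tested peaks 63 were higher and 11 lower in G12D with limma, with a median log2 fold change of 1.44. Over all tested peaks 36.2% were higher and 12.7% lower with limma, with a median of 1.05. With edgeR 52 marker peaks were higher and 20 lower, beside 24.6% and 20.1% of all tested peaks. The part of these marker peaks in the results was not tested. None of the 10 fibroblast, 7 endothelial, 14 blood cell and 9 enteric neuron and glia markers had one. Of 9 smooth muscle markers 1 had a peak (Mylk), and its reads summed to between 34.0 and 46.4 normalized reads in WT and between 14.2 and 36.9 in G12D. Of 7 enteroendocrine markers 3 had a peak, at 8.69 to 23.4 in WT and 41.4 to 84.7 in G12D, and their part in the results was not tested. The input controls were not analysed here. A change in a peak and a change in the amount of its transcript cannot be told apart, nor can fewer cells of a type and less RNA per cell. Whether the 3 libraries of a genotype are 3 animals is not in the labels, and p-values therefore measure only how these libraries spread, which may be technical.

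The zinc finger peaks were spread unevenly over the genes. Klf6 held 12 peaks, Klf4 and Zfp36 held 9 each and Klf3 held 8, so that 4 of the 23 genes had 8 or more peaks, against 81 genes (3.15%) over the whole list. Zfp217 had 4 peaks, Zbtb7a and Zbtb7b had 3 each, Zfp106, Zfp644 and Klf9 had 2 each, and 13 genes had 1. By symbol there were 33 KLF peaks in 6 genes, 11 peaks of the Zfp36 family in 3 genes, 7 Zbtb peaks in 3 genes and 16 peaks of 11 other Zfp genes. No peak was labelled with a Zkscan or Zscan gene.

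Most of these peaks lay in 3' UTRs. The authors' annotation placed 49 of the 67 (73.1%) in a 3' UTR, against 54.7% of all annotated peaks, 14 (20.9%) in other exon sequence, against 31.4%, and 3 (4.48%) in an intron, against 8.13%. None was in a 5' UTR, where 3.03% of all annotated peaks lay. The peaks had a median width of 56 bases and ranged from 23 to 132, and the median over all annotated peaks was also 56.

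Seed matches were about as common in these peaks as in all peaks. A 7-mer match to bases 2 to 8 or a longer match was listed for 39 of 67 (58.2%), against 59.7% of all annotated peaks, and an 8-mer for 17 (25.4%), against 30.0%. The miR-29 family had most matches, in 6 peaks of Klf4, Zfp26, Zfp36, Zfp36l1 and Zfp91, which is 8.96% of the zinc finger peaks, against 3.69% of all annotated peaks. The miR-194 family followed with 4 peaks (5.97% against 5.01%), and miR-27, miR-181 and miR-361 had 3 each. For let-7, which had a match in 8.33% of all annotated peaks, 2 zinc finger peaks (2.99%) had one, in Zfp36 and Zfp516. These shares are descriptions, and peaks of 1 gene share a transcript.

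The comparison of G12D with WT asked in which of these peaks the Ago2 pulldown reads differed when the epithelium carried oncogenic K-Ras. Of the 67 peaks 55, of 20 genes, averaged 5 or more normalized reads across the 6 libraries and were tested with limma. Of these, 19 were higher in G12D (34.5%) and 4 were lower (7.27%) at an adjusted p under 0.05, and 32 did not pass. Over all 4438 tested peaks 48.9% were called, 36.2% as higher and 12.7% as lower, so the zinc finger share of higher peaks was near that background. The median log2 fold change was 0.75 over the 55 peaks and 1.05 over all tested peaks. The higher peaks belonged to 10 genes and the lower ones to 3, and Klf4 and Zfp217 had peaks of both kinds.

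**Figure D1:**
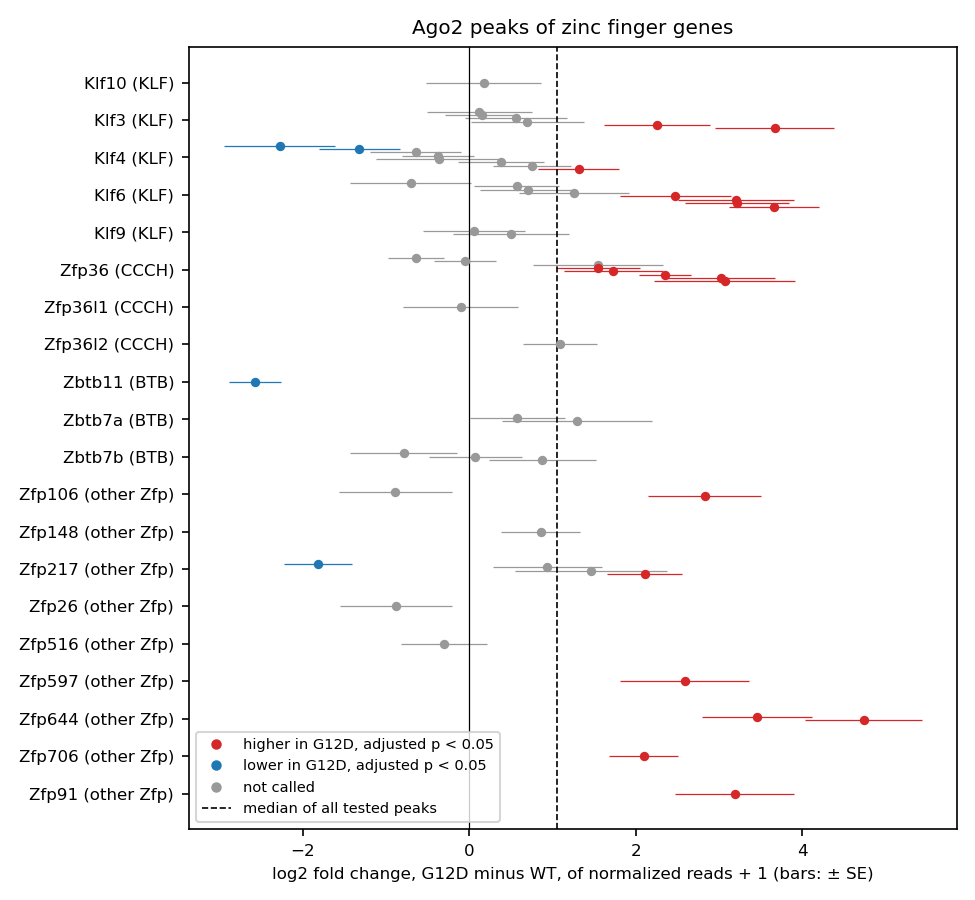
Log2 fold change (G12D minus WT, normalized reads + 1) of each of the 55 tested zinc finger peaks by gene, with bars of 1 standard error, coloured by limma's call, and a dashed line at the median of all tested peaks. Values run from -2.58 in Zbtb11 to 4.74 in Zfp644, and Klf4 and Zfp217 have peaks on both sides of 0.

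The counts of calls moved with the normalization and the test. With every library scaled to the same total 20 zinc finger peaks were higher and 4 lower. With quantile normalization 12 zinc finger peaks were higher and 8 lower, beside 19.7% and 18.1% of all tested peaks. With edgeR on the recovered reads 14 were higher and 8 lower, beside 24.6% and 20.1%, and with DESeq2 14 and 6, beside 25.5% and 17.4%. The median log2 fold change over all tested peaks moved from 1.05 to 0.16, 0.47 and 0.66, respectively. Over all peaks the higher ones made up 74.1% of the calls with limma, 52.1% with quantile normalization, 55.0% with edgeR and 59.4% with DESeq2. No called zinc finger peak changed sign in any alternative, and 10 of the 23 calls held in every alternative that tested them. By the authors' deposited table, the zinc finger peaks included 27 that were higher and 4 that were lower, against 37.9% and 11.6% of its peaks with an adjusted p, and 18 and 4 of them were also called by limma.

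The direction was tied to the genotype in which a peak had been called. This was partly built in, since a peak called in 1 genotype only was selected for its reads there. Over all tested peaks the median log2 fold change was 1.68 for the G12D list only and -2.81 for the WT list only. Of the 67 peaks 54 (80.6%) were on the G12D list only, 11 (16.4%) on both lists and 2 (2.99%), both in Klf4, on the WT list only. Of all annotated peaks 77.6%, 15.1% and 7.36% were, respectively, so the share on the G12D list only was near that background. Of the 42 tested peaks on the G12D list only, 18 were higher and none was lower, where 47.0% and 0.663% of all such peaks were. Of the 11 on both lists, 1 was higher and 3 were lower, beside 13.9% and 25.6% of all such peaks. The 1 higher peak on both lists was the coding-exon peak of Zfp36 described next. In 20 tested peaks all G12D libraries lay above all WT libraries and in 4 all lay below, beside 43.9% and 15.2% of all tested peaks. By annotation, 14 of the 40 tested 3' UTR peaks were higher and 2 lower, beside 37.7% and 6.81% of all tested 3' UTR peaks, and 4 of the 12 exon peaks were higher and 2 lower, beside 28.7% and 18.6%. The 12 untested peaks had means of 1.60 to 4.48 normalized reads, and 9 of the 67 peaks had no read in any WT library.

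As a share of all reads in merged peaks, the zinc finger peaks took more in each G12D library than in any WT library. The share was 0.540% (95% Wilson interval 0.496 to 0.587), 0.594% (0.533 to 0.662) and 0.720% (0.678 to 0.764) in WT, and 0.990% (0.941 to 1.04), 1.17% (1.14 to 1.19) and 0.985% (0.947 to 1.02) in G12D. The means were 0.618 ± 0.0925% and 1.05 ± 0.104% (SD, n = 3). Peaks in rRNA and snRNA took 32.9%, 31.4% and 24.5% of these reads in WT and 22.3%, 8.08% and 16.4% in G12D, and with them left out of the total the zinc finger share was 0.874 ± 0.0753% in WT and 1.24 ± 0.0540% in G12D, again with no overlap. The intervals cover counting error only, since PCR copies are not independent molecules. The higher share was also partly built in, since 54 of the 67 peaks were on the G12D list only. Of all peak reads, those 54 took 0.173 ± 0.0235% in WT and 0.537 ± 0.0965% in G12D. The 11 on both lists took 0.370%, 0.401% and 0.472% in WT and 0.482%, 0.509% and 0.509% in G12D. Of the reads in those 11, the Zfp36 exon peak held 35 of 374, 25 of 218 and 46 of 702 in WT. In G12D it held 372 of 718, 1479 of 3686 and 501 of 1260, so the rise of the 11 rested on 1 peak. Of the 11, 3 were called lower with limma. The 2 on the WT list only took 0.0309 ± 0.0261% in WT and 0.0101 ± 0.00137% in G12D. Within 3' UTRs the groups lay closer, with the zinc finger peaks taking 1.20 ± 0.102% of reads in 3' UTR peaks in WT and 1.39 ± 0.156% in G12D, and the libraries overlapped. Within exons outside 3' UTRs the share was 0.477 ± 0.0718% and 0.912 ± 0.0489%, with no overlap. Of these exon reads the same Zfp36 peak held 35 of 273, 25 of 133 and 46 of 476 in WT. In G12D it held 372 of 669, 1479 of 2966 and 501 of 1096, so this separation rested on 1 peak as well.

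The Zfp36 family made up most of the difference in the summed share. Its peaks took 0.156 ± 0.0160% of peak reads in WT and in G12D 0.434 ± 0.0142% (mean ± SD, n = 3), and Zfp36 alone took 0.113 ± 0.0132% and 0.342 ± 0.0375%. The Zbtb peaks went the other way, from 0.136 ± 0.0168% to 0.0578 ± 0.0101%, and 1 peak of Zbtb11 held most of these reads in WT. The KLF share was 0.231 ± 0.0699% and 0.346 ± 0.0822%, with overlapping libraries, and that of the other Zfp genes was 0.0945 ± 0.0183% and 0.209 ± 0.0408%.

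**Figure D2:**
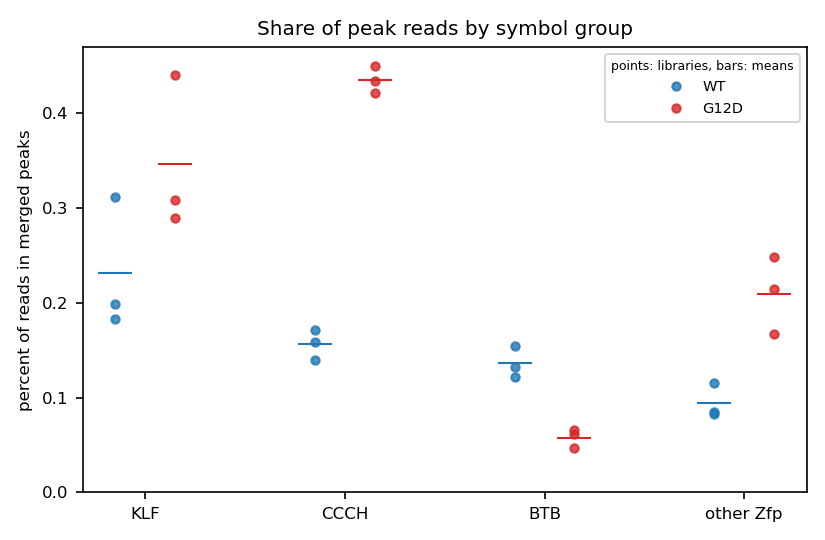
Percent of all reads in merged peaks that fell in the peaks of each symbol group, 1 point per library with bars at the means of 3 libraries. The groups do not overlap for the Zfp36 family (CCCH), the Zbtb genes (BTB) and the other Zfp genes, and they overlap for the KLF genes.

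Zfp36 encodes tristetraprolin, which binds AU-rich elements and speeds the decay of cytokine and growth factor mRNAs, and its own mRNA has been reported as a target of miR-29. Of its 8 tested peaks 5 were higher in G12D and none was lower with limma, with a median log2 fold change of 1.64, but with edgeR and with DESeq2 2 were higher and 1 was lower. Over all tested peaks limma called 36.2% higher and 12.7% lower. The gene lies on chromosome 7 (28376784 to 28379228, minus strand, GRCm38). Its 7 peaks in the 3' UTR fall within 601 bases and 2 lie in other exon sequence.

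The strongest Zfp36 peak lay in an exon outside the 3' UTR (chr7:28378056-28378105, minus strand) and has a 7-mer match to let-7. It held 74.3, 72.5 and 59.3 normalized reads in the WT libraries and 406, 305 and 360 in the G12D libraries. Every G12D library was thus above every WT library, and the means differed 5.20-fold (68.7 ± 8.19 and 357 ± 50.3, SD, n = 3; log2 fold change 2.36 ± 0.31, SE; limma adjusted p = 0.000291). This call held in all alternatives. The other exon peak (chr7:28377809-28377867), which has 6-mer matches only, held 0, 0 and 7.73 normalized reads in WT and 18.5, 13.6 and 17.2 in G12D (log2 fold change 3.07 ± 0.85; limma adjusted p = 0.0111). Its WT reads all came from 1 library, and its call was lost with edgeR, DESeq2 or any 1 G12D library left out.

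In the 3' UTR of Zfp36 the peaks did not move alike. A peak without a listed match (chr7:28377242-28377285) held 2.12, 8.69 and 1.29 normalized reads in WT and 46.9, 28.9 and 25.1 in G12D, and its log2 fold change was 3.03 ± 0.64 (limma adjusted p = 0.0029). The next peak towards the gene's end, on both genotypes' lists, (chr7:28377138-28377192) held 84.9, 81.1 and 63.2 in WT and 41.4, 49.3 and 55.3 in G12D. In that peak every G12D library was below every WT library, yet the log2 fold change of -0.64 ± 0.34 did not pass (limma adjusted p = 0.133). It was called lower with edgeR and DESeq2 (adjusted p = 0.018 and 0.0298), and its log2 fold change was 0.03 after thinning. Against the other peaks of the gene it differed by -2.53 on the log2 scale (within-gene test in limma, adjusted p = 0.00334), a call that held in all 14 alternatives run.

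The miR-29 matches of Zfp36 were in 2 of its 3' UTR peaks. The peak at chr7:28377050-28377098 held 14.9, 2.90 and 14.2 normalized reads in WT and 37.1, 35.7 and 23.7 in G12D (log2 fold change 1.73 ± 0.59; limma adjusted p = 0.0298). The one at chr7:28377374-28377433 held 48.8, 29.0 and 36.1 in WT and 38.2, 36.1 and 33.0 in G12D, so its groups overlapped (log2 fold change -0.05 ± 0.37; limma adjusted p = 0.908). The call of the former was lost with quantile normalization, edgeR and DESeq2, without WT replicate 2 and without any 1 G12D library. Another 3' UTR peak (chr7:28377485-28377571) held 6.37, 5.80 and 6.44 normalized reads in WT and 24.0, 17.3 and 19.4 in G12D (log2 fold change 1.55 ± 0.50; limma adjusted p = 0.0241), and it was lost with quantile normalization, edgeR and DESeq2, without any 1 G12D library, and after thinning.

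The relatives of Zfp36 had 1 peak each, and neither passed with limma. The exon peak of Zfp36l2, which encodes a decay factor of the same family, held 46.7, 46.4 and 124 normalized reads in WT and 101, 133 and 197 in G12D (log2 fold change 1.09 ± 0.44; limma adjusted p = 0.0571), and the groups overlapped. It passed in 7 of 18 alternatives, among them quantile normalization (adjusted p = 0.0132) and leaving out WT replicate 3 (adjusted p = 0.0126), while edgeR gave an adjusted p of 0.456. The Zfp36l1 peak lies in the 3' UTR and has an 8-mer match to miR-29, and it held 10.5 normalized reads in WT on average and 8.30 in G12D (limma adjusted p = 0.906). Genes that act with the Zfp36 proteins were taken as a list of 24 decay partners, of which 12 had a tested peak. Of their 19 tested peaks 7 were higher and 1 was lower with limma, a share of higher peaks near the 36.2% of all tested peaks, and the median log2 fold change was 1.38, beside 1.05. With edgeR and with DESeq2 4 were higher and 1 was lower. The higher ones included 4 in the 3' UTR of Ywhaz and 1 in that of Ywhab, which encode 14-3-3 proteins, and the lower one was an intron peak of Mapk14, which encodes a p38 kinase.

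Among the Krüppel-like factors, 25 of 33 peaks were tested, 7 were higher in G12D and 2 were lower with limma, beside 36.2% and 12.7% of all tested peaks. The median log2 fold change was 0.57, beside 1.05 over all tested peaks. Klf6 and Klf3 had only higher calls, whereas Klf4 had 1 higher and 2 lower. With edgeR Klf4 had no higher and 4 lower peaks. No peak of Klf9 or Klf10 passed, and the peak of Klf5 was too low to be tested.

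Klf6 encodes a transcription factor known as an immediate early gene and a tumour suppressor candidate. Its 12 peaks all lay in the 3' UTR annotation over 5186 bases of chromosome 13, and all were on the G12D list only. Of the 8 tested, 4 were higher with limma, beside 36.2% of all tested peaks and 47.0% of those on the G12D list only. The largest in reads (chr13:5867858-5867989) held 2.12, 23.2 and 16.8 normalized reads in WT and 55.6, 76.7 and 51.7 in G12D, with no overlap (log2 fold change 2.48 ± 0.67; limma adjusted p = 0.00978). It was no longer called without G12D replicate 2. Of the 12 peaks, 4 had no read in any WT library, and 2 of them were tested. The one at chr13:5868900-5868961 held 12.0, 15.3 and 8.62 in G12D, and was at least 7.19-fold higher than 3 reads over the WT group would give (limma adjusted p = 0.000419).

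The second of these peaks (chr13:5869041-5869097), with an 8-mer match to miR-16-1-3p, held 3.27, 18.6 and 8.62 normalized reads in G12D and was at least 7.79-fold higher (limma adjusted p = 0.00177). Both were lost when all libraries were thinned to the depth of the shallowest, and the latter also with quantile normalization. A peak with a miR-181 match (chr13:5867682-5867745) had 1 read in WT and 96 in G12D, a ratio of 21.4 after scaling (95% counting interval 3.74 to 852; limma adjusted p = 0.00326), which quantile normalization ended. One Klf6 site stood apart from its neighbours: the peak with an 8-mer match to miR-141 (chr13:5868790-5868835) held 6.37, 14.5 and 10.3 in WT and 9.82, 10.3 and 1.44 in G12D. The groups overlapped there, and its log2 fold change was -2.86 relative to the other Klf6 peaks (within-gene test in limma, adjusted p = 0.00187), a difference that was lost only after thinning.

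Klf4 encodes a factor known to drive differentiation and goblet cell formation in the colon. Its peaks lay on chromosome 4 (gene 55527137 to 55532475, minus strand), 6 of them within 779 bases of 3' UTR and 3 in other exon sequence. Summed over the gene, Klf4 reads did not separate the genotypes, with sums of 312 ± 129 in WT and 229 ± 30.3 in G12D (normalized reads; mean ± SD, n = 3). The single sites differed in direction. The 3' UTR peak at chr4:55527360-55527411 has an 8-mer match to the miR-25/92 family and a 7-mer match to miR-148/152, and it held 29.7, 11.6 and 79.9 normalized reads in WT and 5.45, 8.25 and 3.59 in G12D.

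That Klf4 peak was lower in every G12D library (log2 fold change -2.28 ± 0.67; limma adjusted p = 0.0155), but it had been called in WT only, and the call was lost without WT replicate 3, without G12D replicate 1 or 3, and after thinning. The neighbouring peak, with a miR-29 match (chr4:55527528-55527581), held 6.37, 17.4 and 10.3 in WT and 27.3, 32.0 and 24.4 in G12D (log2 fold change 1.32 ± 0.49; limma adjusted p = 0.0415). That call was lost in 10 of 16 alternatives, edgeR, DESeq2 and every left-out library except WT replicate 2 among them. Both peaks also differed from the rest of the gene, by -2.24 and 1.86 on the log2 scale (within-gene test in limma, adjusted p = 0.0102 and 0.0323).

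The exon peak of Klf4 at chr4:55530501-55530552 held 115, 34.8 and 117 normalized reads in WT and 38.2, 22.1 and 33.8 in G12D. WT replicate 2 lay among the G12D libraries, and the lower call (log2 fold change -1.32 ± 0.49; limma adjusted p = 0.0415) was lost in 8 of 18 alternatives, every left-out library except WT replicate 2 among them. The Klf4 peak with the most reads, with a 7-mer match to miR-7 (chr4:55528015-55528068), held 51.0, 81.1 and 143 in WT and 48.0, 59.0 and 95.5 in G12D, with overlapping groups, and was called lower with edgeR only (adjusted p = 0.0466). The neighbouring exon peak with an 8-mer match to miR-141 (chr4:55530327-55530386) held 24.3 normalized reads in WT on average and 37.9 in G12D (limma adjusted p = 0.197).

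Klf3 encodes a transcriptional repressor that recruits CtBP. Of its 6 tested peaks 2 were higher and none was lower with limma, beside 36.2% and 12.7% of all tested peaks. The peak at chr5:64832156-64832210 in the 3' UTR has an 8-mer match to the miR-130 family and a 7-mer match to miR-200/429, and it held 0, 2.90 and 0 normalized reads in WT and 14.2, 28.1 and 17.2 in G12D. It rested on 1 WT read against 173 in G12D, a ratio of 38.5 after scaling (95% counting interval 6.82 to 1529), and its log2 fold change was 3.67 ± 0.72 (limma adjusted p = 0.00182).

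That Klf3 peak was on the G12D list only, and its call held in the 16 of 18 alternatives that tested it. The alternatives limited to peaks on both lists or to an average of 20 or more did not include it. Its log2 fold change was also 2.91 above that of the other Klf3 peaks (within-gene test in limma, adjusted p = 0.000963), and this held in all 13 alternatives that tested it. The next peak downstream (chr5:64832499-64832554) held 4.25, 2.90 and 3.87 in WT and 38.2, 25.8 and 9.34 in G12D (log2 fold change 2.26 ± 0.63; limma adjusted p = 0.0122), and it was lost with quantile normalization, without G12D replicate 1 or 2, and after thinning. The Klf3 peak with an 8-mer match to miR-23 held 19.0 normalized reads in WT on average and 21.9 in G12D (limma adjusted p = 0.78).

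**Figure D3:**
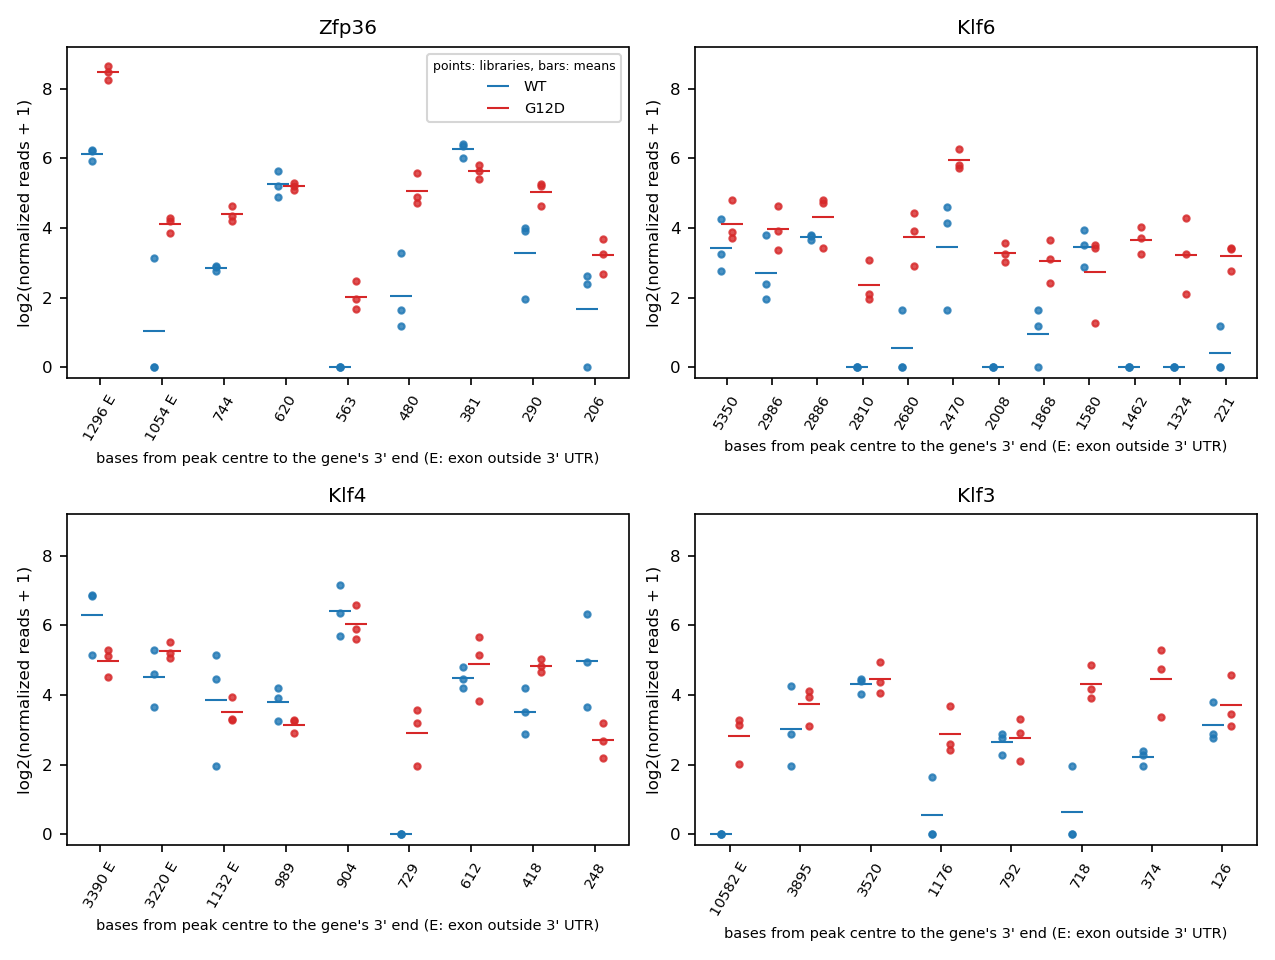
Reads in every merged peak of Zfp36, Klf6, Klf4 and Klf3 as log2(normalized reads + 1), 1 point per library with bars at the means of 3 libraries, ordered along the gene by genomic distance from the peak's centre to its 3' end (E marks exon sequence outside the 3' UTR). The strongest Zfp36 exon peak is higher in all G12D libraries, while the peak 381 bases from the end is lower, and Klf4 has peaks that differ in both directions.

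Partners and regulators of the KLFs were taken as a list of 24 genes, of which 8 had a tested peak. Of their 25 tested peaks 6 were higher and 3 were lower with limma, beside 36.2% and 12.7% of all tested peaks, and the median log2 fold change was 1.11, beside 1.05. With edgeR 4 were higher and 6 lower. The largest in reads was an exon peak of Elf3, an epithelial ETS factor, which was at 603 normalized reads in WT and 48.7 in G12D (limma adjusted p = 0.000114). It was nevertheless on the G12D list only. No other tested Elf3 peak passed, and their log2 fold changes ran from -1.83 to 1.28. Ccnd1, which encodes cyclin D1 and is a known KLF4 target, had an exon peak that rose from 8.89 to 49.0 (limma adjusted p = 0.00132).

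The BTB genes gave 6 tested peaks. Over all tested peaks 36.2% were higher and 12.7% lower with limma, and 24.6% and 20.1% with edgeR. Of the 6 BTB peaks none was higher and 1 was lower with limma, edgeR and DESeq2 alike, and no other had an unadjusted p under 0.05 with limma. That was the exon peak of Zbtb11 (chr16:55991033-55991081, plus strand), a transcription regulator with a BTB domain. It held 221, 203 and 193 normalized reads in WT and 34.9, 30.3 and 35.9 in G12D, so the genotypes lay far apart. The means were 206 ± 13.9 and 33.7 ± 2.97 (SD, n = 3), 6.10-fold lower in G12D (log2 fold change -2.58 ± 0.31; limma adjusted p = 0.00023). The peak was on both genotypes' lists, no seed match of any length was listed for it, and the call held in all 18 alternatives.

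The other BTB genes showed no call with limma. Zbtb7b, known for its part in T cell lineage choice, had a 3' UTR peak with an 8-mer match to miR-19 that held 14.9, 5.80 and 11.6 normalized reads in WT and 10.9, 9.08 and 12.2 in G12D, and none of 14 blood cell markers had a peak. Its second 3' UTR peak held 19.1, 26.1 and 5.16 in WT and 6.54, 6.81 and 10.1 in G12D (limma adjusted p = 0.322), and it was called lower with quantile normalization (adjusted p = 0.0155). The tested peaks of Zbtb7a, which encodes a repressor also called LRF, did not pass (limma adjusted p = 0.409 and 0.247). Of the corepressor genes that BTB proteins use, 4 of 17 had a tested peak. Of their 6 peaks 2 were higher and 1 was lower with limma, beside 36.2% and 12.7% of all tested peaks. The median log2 fold change was 0.76, beside 1.05. With edgeR 1 was higher and 2 were lower.

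The remaining Zfp genes gave 14 tested peaks, of which 7 were higher and 1 was lower with limma, beside 36.2% and 12.7% of all tested peaks. Their median log2 fold change was 1.78, beside 1.05 over all tested peaks. Zfp217, whose human counterpart is amplified in several carcinomas and encodes a repressor in CtBP complexes, had 1 of each in its 3' UTR on chromosome 2, separated by 326 bases. The peak nearer the gene's end (chr2:170108829-170108894, minus strand) has an 8-mer match to miR-200/429 and held 14.9, 8.69 and 6.44 normalized reads in WT and 39.3, 46.8 and 46.7 in G12D (log2 fold change 2.11 ± 0.45; limma adjusted p = 0.00284). The other (chr2:170109221-170109282) has 8-mer matches to both miR-21 and miR-24 and held 53.1, 49.3 and 82.5 in WT and 14.2, 22.3 and 13.6 in G12D (log2 fold change -1.82 ± 0.41; limma adjusted p = 0.00367).

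In both Zfp217 peaks the genotypes did not overlap. The higher peak was on the G12D list only and the lower one on both lists. Their calls held in all 17 and 18 alternatives that tested them, respectively. The summed Zfp217 reads came to 84.4 ± 24.1 in WT and 87.3 ± 1.83 in G12D (normalized reads; mean ± SD, n = 3). The log2 fold change of the miR-21 and miR-24 peak was -3.32 relative to the other Zfp217 peaks (within-gene test in limma, adjusted p = 0.00336), a call that was lost only after thinning. That of the miR-200/429 peak was 1.91 above the others and did not pass (adjusted p = 0.0747).

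Zfp644, whose product has been described as a partner of the G9a histone methyltransferase complex, had 2 peaks and both were higher. The intron peak (chr5:106677473-106677521, minus strand) held 0, 0 and 2.58 normalized reads in WT and 26.2, 41.1 and 58.9 in G12D. Its log2 fold change of 4.74 ± 0.70 (limma adjusted p = 0.000414) was the highest of the tested zinc finger peaks, and 2 WT reads stood against 305, a ratio of 33.9 after scaling (95% counting interval 9.31 to 281). The exon peak (chr5:106694124-106694177), with a 7-mer match to miR-194, held 2.12, 0 and 0 in WT and 13.1, 15.1 and 17.2 in G12D (log2 fold change 3.46 ± 0.66; limma adjusted p = 0.00161).

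Zfp706 and Zfp91 each had 1 peak in the 3' UTR, and both rose. The Zfp706 peak (chr15:37000410-37000465) has a 7-mer match to miR-22 and held 23.4, 17.4 and 11.6 normalized reads in WT and 56.7, 103 and 72.5 in G12D (log2 fold change 2.10 ± 0.41; limma adjusted p = 0.00191). The Zfp91 peak (chr19:12769359-12769414) has a 7-mer match to miR-29 and held 2.12, 0 and 1.29 in WT and 8.72, 16.3 and 31.6 in G12D (log2 fold change 3.19 ± 0.72; limma adjusted p = 0.00374). Zfp91 is known as an atypical E3 ubiquitin ligase. Both of these calls, and both of Zfp644, held in every alternative that tested them. All of these peaks were on the G12D list only, so the alternative limited to peaks on both lists did not include them.

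Zfp106, which encodes an RNA-binding protein of muscle and motor neurons, had exon peaks that moved unequally. The one at chr2:120531914-120531978 held 0, 2.90 and 0 normalized reads in WT and 10.9, 8.46 and 11.5 in G12D (log2 fold change 2.83 ± 0.68; limma adjusted p = 0.00529). The one at chr2:120524125-120524174, with an 8-mer match to miR-22, held 40.3, 5.80 and 36.1 in WT and 12.0, 7.63 and 13.6 in G12D and did not pass (log2 fold change -0.89; limma adjusted p = 0.287). It was called lower with quantile normalization, edgeR and DESeq2 and without WT replicate 2 (adjusted p = 0.0395, 0.00359, 0.0189 and 0.0102), and its log2 fold change was 0.03 after thinning. The difference between them was 3.72 on the log2 scale (within-gene test in limma, adjusted p = 0.0111) and was lost without WT replicate 1 or 3, without any 1 G12D library, and after thinning. The higher call at the former peak ended with quantile normalization.

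The last of the higher peaks was that of Zfp597 (chr16:3861570-3861624), with an 8-mer match to miR-27 and 7-mer matches to miR-25/92 and miR-181. It held 0, 0 and 5.16 normalized reads in WT and 6.54, 13.2 and 11.5 in G12D (log2 fold change 2.59 ± 0.78; limma adjusted p = 0.017), and it was lost with quantile normalization, edgeR and DESeq2 and without WT replicate 1 or G12D replicate 2 or 3. The peaks of Zfp148, Zfp26 and Zfp516 did not pass, with log2 fold changes of 0.86, -0.88 and -0.31. Zfp626 and Zfp655 each had 1 peak without a read in WT that was too low to be tested.

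For comparison, a list of 94 other genes with C2H2 fingers, such as Sp1 and Ctcf, had 18 tested peaks in 11 genes. Of these 3 were higher and 5 lower with limma, beside 36.2% and 12.7% of all tested peaks, and the median log2 fold change was 0.06, beside 1.05. Plagl2 resembled Zfp217 in having a 3' UTR peak of each kind, at 5.73 normalized reads in WT and 58.6 in G12D (limma adjusted p = 0.00326) and at 24.4 and 2.30 (limma adjusted p = 0.00348). Of 23 genes for the corepressors that KRAB zinc finger proteins recruit, 3 had a tested peak, and none of their 6 peaks passed with limma, edgeR or DESeq2 (0 had an unadjusted p under 0.05 with limma).

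Peaks of the same transcript share its abundance, so the within-gene test compared each peak's log2 fold change with those of the other tested peaks of its gene. Peaks of 1 gene could be on different genotype lists, so differences between them were partly built in. Over all tested peaks the median log2 fold change was -0.45 on both lists, 1.68 on the G12D list only and -2.81 on the WT list only. Passing peaks of Zfp36, Klf4, Zfp106 and Zfp217 were set against peaks of another list. It could be run on 45 zinc finger peaks of 10 genes, and 12 passed (26.7%), 6 above and 6 below the rest of the gene. Over all peaks so tested 30.2% passed, 14.8% above and 15.3% below, so the share was near that background. The 12 lay in Zfp36 (4), Klf4 (2), Klf6 (2), Zfp106 (2), Klf3 (1) and Zfp217 (1). Zfp106 had only 2 tested peaks, so its 2 are 1 contrast counted with opposite signs. Those described above at Zfp36 (chr7:28377138-28377192) and Klf3 (chr5:64832156-64832210) held throughout, and the Klf6 miR-141 and Zfp217 miR-21 and miR-24 peaks were lost only after thinning. The other 8 were each lost when at least 2 of the 6 libraries were left out in turn.

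The miRNAs themselves were sequenced from the pulldown in their own libraries. Of 24 miRNAs of the 8 families, 23 were tested with limma, and 3 were higher and none was lower in G12D, beside 9.06% higher and 6.69% lower among all 254 tested miRNAs. The lowest p was that of miR-27a-3p, with 10704, 18201 and 10046 normalized reads in WT and 28847, 26554 and 25426 in G12D (log2 fold change 1.10 ± 0.19; limma adjusted p = 5.57e-05). Its call was lost only in a fit without the variance trend (limma adjusted p = 0.0585). Its seed family matched peaks of Klf3, Klf4 and Zfp597, of which the Zfp597 peak was higher.

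The others were miR-194-5p, at 20030 ± 4578 and 28797 ± 5322 (SD, n = 3; log2 fold change 0.53 ± 0.18; limma adjusted p = 0.0339), and miR-200b-3p, at 12341 and 17681 on average (log2 fold change 0.56; limma adjusted p = 0.0364). For both of these miRNAs the libraries of the genotypes overlapped. The miR-194 call was lost with edgeR, DESeq2 and 5 other processing choices and without WT replicate 3, G12D replicate 2 or G12D replicate 3. For miR-29a-3p, whose family had most matches, the libraries held 579, 690 and 964 normalized reads in WT and 831, 1181 and 851 in G12D and overlapped (log2 fold change 0.37 ± 0.28; limma adjusted p = 0.401). The most abundant let-7, let-7b-5p, was at 4320 ± 931 in WT and 4318 ± 1034 in G12D, beside the let-7 matched exon peak of Zfp36 that was 5.20-fold higher. No relation between a miRNA and its sites was tested.

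**Figure D4:**
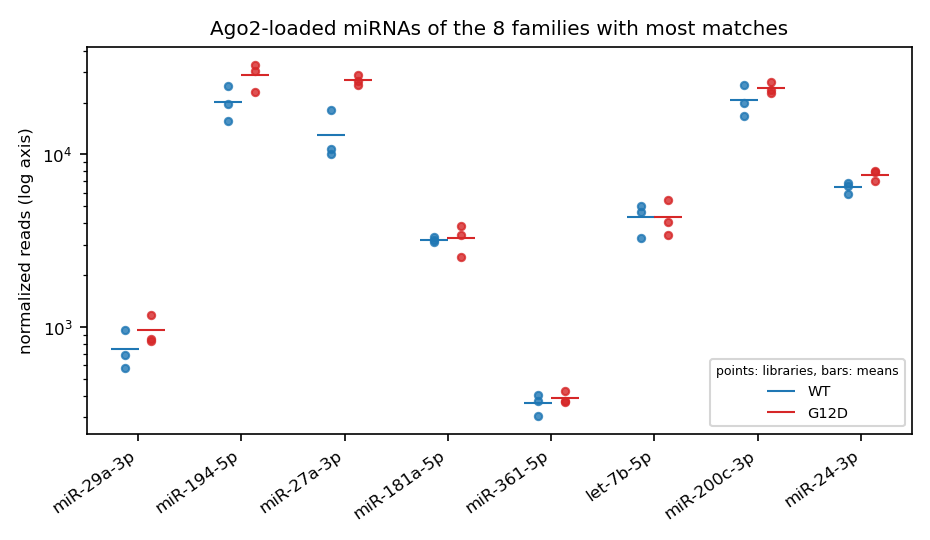
Normalized reads (log axis) of the most abundant tested miRNA of each of 8 seed families (the 5 with most matches in zinc finger peaks, and of 9 tied at 2 peaks the 3 with most matches over all peaks), 1 point per library with bars at the means of 3 libraries. For miR-27a-3p and miR-24-3p all G12D libraries lie above all WT libraries, though miR-24-3p did not pass (limma adjusted p = 0.44). For all others shown, miR-194-5p among them, the genotypes overlap.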

How the data were processed

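Pulldown mRNA peaks and miRNAs were compared between 3 WT and 3 G12D libraries. STAR 2.5.2b, DESeq2 and the builds mm10 and GRCm38 are named in the submitters' processing notes. How peaks were called, reads were counted and multi-mapping reads were treated is not given in the sources used here, so reads of near-identical zinc finger repeats may be split between genes. The deposited normalized values are a signal that is never negative, and 100% of them were whole reads, within 0.01 of a read, times 1 factor per library. Per the file headers, the deposited differential tables hold log2 fold changes and p-values from the authors. A score from the authors stands in each deposited peak list and was not used in a test. Annotation and seed matches are the authors', per the file headers. Whether peaks were called on pooled libraries is not stated. The peak columns were taken as the mRNA pulldown libraries from their genotype code and replicate number. Coordinates are GRCm38, counted from 1. All 23 gene symbols matched RefSeq.

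Tests used limma 3.58.1 (R 4.3.3) with a variance trend on log2(normalized reads + 1), on all peaks averaging 5 or more and all miRNAs averaging 10 or more normalized reads, with Benjamini-Hochberg adjustment over all tested and a threshold of 0.05. Fold changes are on that scale and understate changes of low peaks. The within-gene test was limma's diffSplice. Where WT had 1 to 3 reads, ratios were taken on the recovered reads with exact 95% intervals, and where it had none, against a floor of 3 reads over the group. Procedures were tested on simulated data. Libraries of a genotype differed by more than sampling noise (smallest chi-square per degree of freedom 3.68).

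Alternatives were other pseudocounts, filters, scalings, edgeR 4.0.16 with TMM, DESeq2 1.42.0, a replicate block, peaks on both lists only and each library left out. Thinning all libraries to the depth of the shallowest was chosen after seeing the data. Peaks were named if among the 8 largest changes in a direction with groups that do not overlap, the 5 highest in mean, the 3 highest of a symbol group, past the within-gene test, or in an exon with an 8-mer match. The 4 other peaks that passed (2 of Zfp36 and those of Klf3 and Zfp597), further members given by value and miR-200b-3p were named after their values were seen. The members and gene lists were chosen with earlier results of these data known. Input libraries were not analysed here. Another 2 peaks that name a zinc finger gene after another gene were left out.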

Additional observations from a re-analysis of the deposited data

How the results depend on the processing

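No called peak changed sign under any alternative that was run, but some peaks that were not called did, and among peaks on both lists lower calls outnumbered higher ones. Against 19 higher zinc finger peaks, no filter on low values gave 31, an average of 20 or more normalized reads 7 (of 18 tested, beside 32.3% of all peaks so tested), quantile normalization 12, and peaks on both lists only 1, with 3 lower and a median log2 fold change of -0.37 (of 11, beside 12.7% of all such peaks). Leaving out each library in turn gave 12 to 20, with 12 without G12D replicate 2. Against 4 lower peaks, quantile normalization gave 8, edgeR 8 and thinning 2 (beside 9.49% of all tested peaks), and leaving out each library gave 2 to 6. Without WT replicate 3, G12D replicate 1 or G12D replicate 3 the count was 2. Against 12 peaks that differed from the rest of their gene, 7 of 11 tested passed with an average of 20 or more (4 of the 12 were tested and all 4 passed). After thinning 4 passed, and with a library left out 4 to 12. The count was 6 without WT replicate 3, 6 without G12D replicate 1, 5 without G12D replicate 2 and 4 without G12D replicate 3. The higher share of peak reads in G12D, 0.430 percentage points, ranged from 0.370 to 0.481 with a library left out, and was 0.366 without rRNA and snRNA reads. For peaks on both lists it was 0.353, but there the total was reads in both-list peaks only. As a share of all peak reads, those peaks took 0.370%, 0.401% and 0.472% in WT and 0.482%, 0.509% and 0.509% in G12D. That rise rested on the Zfp36 exon peak, which held 372 of 718, 1479 of 3686 and 501 of 1260 of their reads in G12D. Counting 8-mers only, 25.4% of the zinc finger peaks had a seed match instead of 58.2%.

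Replicate numbers gave no sign of pairing in the peaks, judged by correlating each library's deviations from the mean of its genotype. Between same-numbered libraries of the 2 genotypes these correlations were 0.041, -0.036 and -0.008. In the miRNA libraries they were -0.422 for replicate 2 and -0.318 for replicate 3, and between other numbers they reached 0.425. A replicate block gave 20 higher and 4 lower peaks, the added one being that of Zfp36l2 (adjusted p = 0.0189), and 10 in the within-gene test. For the 28 named peaks, 412 of 472 recomputed log2 fold changes kept their side of the threshold and their direction. The variance trend, edgeR, DESeq2 and both-lists alternatives were not run for the within-gene test. The WT libraries held as few as 54401 reads in peaks, so peaks with few WT reads have wide intervals. The causes of these shifts were not tested, beyond the smaller number of peaks or samples in some alternatives.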
